A study of Mus musculus with 9 samples.

Results

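Osr1, Abi3bp, Abca9, Scara5, Lepr, Arhgap20, Sned1 and Pamr1 are grouped here as genes of connective tissue progenitors and stromal cells, a label that was not tested. Their RNA was followed in cultured mouse sclerotome under BMP4 and TGF-β1. These 8 genes were picked from the same arrays because their RNA was lower with BMP4, or with both factors, than without a factor. Their differences from untreated cultures are therefore given as a description, without a test. All 15 probe sets annotated to 1 of these symbols alone were used, of 45037 probe sets on the array, and the genes are 8 of 18193 with such a probe set. No filter on low signal was applied, so all 15 probe sets stayed in. Where a gene has several probe sets, the one with the largest variance over the arrays stands for the gene, and the others are described beside it.

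The cells were sclerotome, the part of the somite that gives rise to vertebrae and intervertebral discs. They came from the region ventral to the neural tube of wild type E11.5 mouse embryos, without the notochord, and were plated as micromass cultures, which are dense drops of mesenchymal cells. One group had no factor, one received BMP4 at 50 ng/ml for 8 hours, and one received TGF-β1 at 5 ng/ml for 8 hours, with 3 arrays (numbered 1, 2 and 3) in each. All 9 cultures carried the same medium with serum. The treatment note places the factors after a night in culture, while the culture note has them added once the cells had attached, and which of these holds was not settled. Each array holds RNA of a whole culture, so fewer cells of a type and less RNA per cell cannot be told apart.

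Connective tissue progenitors are mesenchymal cells that give rise to fibroblasts and to the stroma of muscle, tendon and organs. Osr1, a zinc finger transcription factor of the odd-skipped family, marks such cells in limb mesenchyme and is also needed in early kidney and heart development. BMP4 and TGF-β1 belong to one superfamily of secreted ligands, signal through pairs of serine/threonine kinase receptors, and pass the signal to the nucleus through different sets of Smad proteins. In sclerotome, BMP signalling is known for cartilage formation and TGF-β signalling for fibrous tissue of the disc.

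The promoters of genes that were lower together are shown first, because they differ widely in base composition. RefSeq (GRCm38.p6) windows of 300 bases, from 250 before to 50 after the transcription start, were on hand for 4 of the 8 genes, with 5 windows in all (Lepr has a pair). Osr1, Abi3bp, Scara5 and Pamr1 had no window in that table. The Abca9 window lies at chr11:110168104-110168403 on the minus strand, the Lepr window with E-box letters at chr4:101717157-101717456 on the plus strand, that of Arhgap20 at chr9:51765101-51765400 on the plus strand, and that of Sned1 at chr1:93235647-93235946 on the plus strand. Each is printed 5′ to 3′ along its gene, with matches to the searched motifs in capitals.
Abca9: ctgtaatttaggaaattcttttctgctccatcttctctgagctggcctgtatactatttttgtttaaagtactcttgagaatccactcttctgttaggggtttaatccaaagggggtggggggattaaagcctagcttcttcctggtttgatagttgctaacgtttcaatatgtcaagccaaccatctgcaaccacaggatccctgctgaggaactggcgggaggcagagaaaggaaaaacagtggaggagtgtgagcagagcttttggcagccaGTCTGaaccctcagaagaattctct
Lepr: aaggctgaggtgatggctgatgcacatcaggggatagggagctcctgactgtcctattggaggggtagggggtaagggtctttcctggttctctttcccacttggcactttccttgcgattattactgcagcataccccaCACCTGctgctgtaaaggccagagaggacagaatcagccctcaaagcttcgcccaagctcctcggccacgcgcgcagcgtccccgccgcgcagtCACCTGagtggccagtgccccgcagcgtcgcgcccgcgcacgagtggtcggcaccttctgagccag
Arhgap20: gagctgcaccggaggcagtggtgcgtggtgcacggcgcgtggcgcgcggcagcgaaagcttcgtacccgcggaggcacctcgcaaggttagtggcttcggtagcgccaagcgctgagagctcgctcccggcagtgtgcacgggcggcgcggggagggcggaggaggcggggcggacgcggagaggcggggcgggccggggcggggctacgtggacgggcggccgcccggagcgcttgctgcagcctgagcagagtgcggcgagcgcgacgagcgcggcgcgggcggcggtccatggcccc
Sned1: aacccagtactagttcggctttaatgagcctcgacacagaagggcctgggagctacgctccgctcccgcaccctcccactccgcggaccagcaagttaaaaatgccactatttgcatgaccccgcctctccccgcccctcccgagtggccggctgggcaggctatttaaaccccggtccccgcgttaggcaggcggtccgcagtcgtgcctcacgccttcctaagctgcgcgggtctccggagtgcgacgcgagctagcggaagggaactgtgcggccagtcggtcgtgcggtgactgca

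Abca9 and Arhgap20 mark the extremes of the set. The Abca9 window held 2 CpG dinucleotides and 45.3% G or C, and its observed to expected CpG ratio of 0.131 stood at percentile 18.1 of 32851 promoter windows. Arhgap20 had 48 CpG and 77% G or C, with a ratio of 1.14 at percentile 98.9. Sned1 resembled Arhgap20, with 29 CpG and a ratio of 0.943 at percentile 90.6, whereas the printed Lepr window held 18 CpG. A lower RNA with both factors was thus seen in genes with CpG-poor and with CpG-rich windows.

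A total of 6 motifs were searched on both strands, and no match overlapped another motif. The Smad box CAGAC matched in 2 of the 5 windows, once in Abca9 at 26 bases from the start (as GTCTG) and once in the other Lepr window (chr4:101717656-101717955, plus strand) at position -1, against 49.6% of all windows. The E-box CAGGTG was found at positions -110 and -16 of the printed Lepr window (as CACCTG), and 20.2% of all windows hold it. The others had 0 matches in the 5 windows. They were the GC-rich Smad1/5 element GGCGCC (11.9% of all windows), the TATA box TATAAA (13.6%), the Osr1 motif GCTACTG (3.7%) and the TGF-β inhibitory element (1%). A match describes letters in a window and is no measure of binding.

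**Figure D1:**
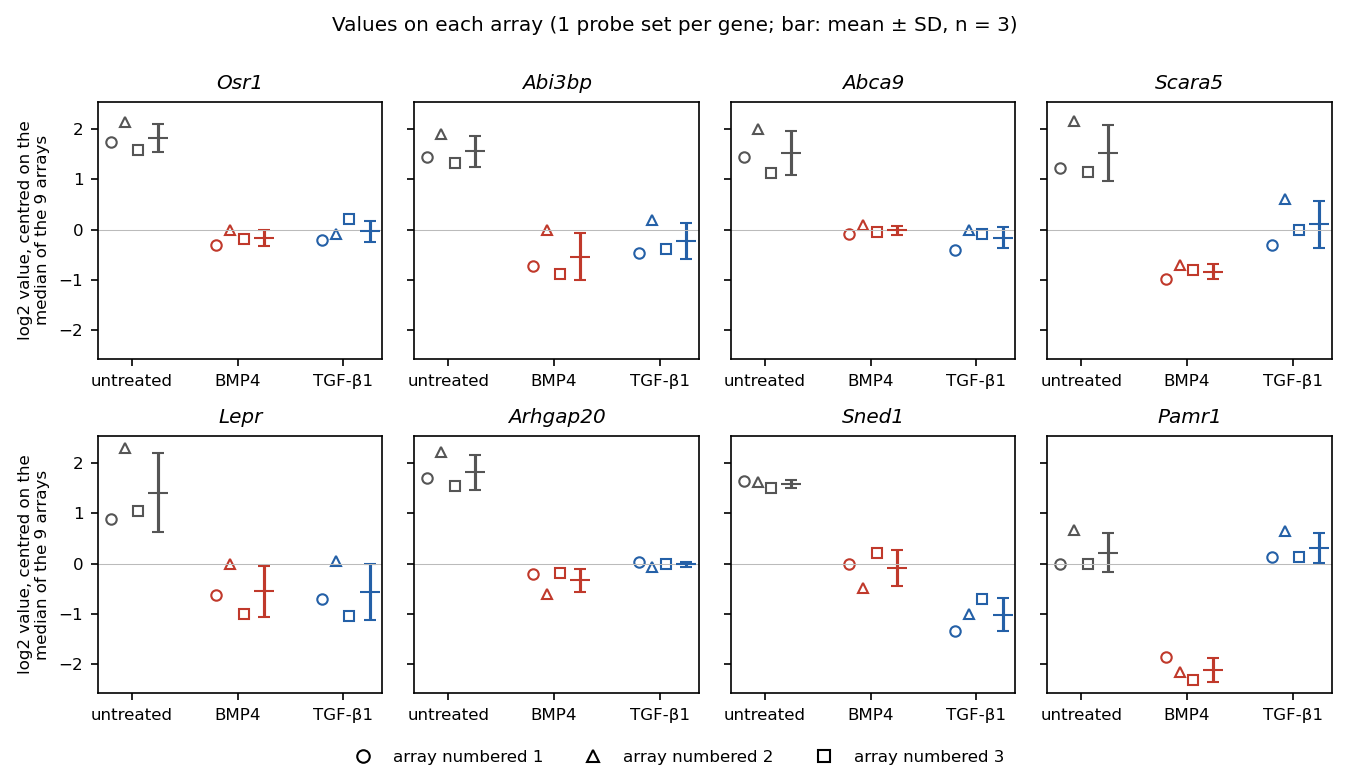
Log2 value of each of the 8 genes (y axis, centred on the median of the 9 arrays) on each array of the untreated, BMP4 and TGF-β1 groups (x axis), with circles, triangles and squares for arrays numbered 1, 2 and 3 and bars for mean ± SD (n = 3). The untreated arrays lie above all treated arrays in 7 genes, and in Pamr1 only the BMP4 arrays lie apart, at -1.86 to -2.32.

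The transcription factor Osr1 (probe set 1449350_at) read 1.75, 2.13 and 1.59 in the untreated arrays, -0.31, 0.00 and -0.18 with BMP4, and -0.21, -0.09 and 0.20 with TGF-β1. These are log2 values centred on each probe set's own median over the 9 arrays, so that differences between arrays can be read from them and expression levels cannot. The untreated arrays lay above all 6 treated arrays, and the treated groups overlapped. BMP4 arrays were lower by a log2 difference of -1.99 ± 0.15 (SE, n = 3 per group), which is 3.97-fold, and TGF-β1 arrays by -1.86 ± 0.15 (3.62-fold). Within each replicate number the difference ran from -1.77 to -2.13 with BMP4 and from -1.39 to -2.22 with TGF-β1.

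Among the secreted proteins, Abi3bp, a matrix protein that binds the SH3 domain of Abi3, is covered by a pair of probe sets that followed each other. Probe set 1427054_s_at read 1.45, 1.90 and 1.31 in the untreated arrays, -0.72, 0.00 and -0.89 with BMP4, and -0.46, 0.19 and -0.39 with TGF-β1. Arrays numbered 2 stood highest in all 3 groups. The log2 difference from untreated was -2.09 ± 0.25 with BMP4 (4.25-fold) and -1.77 ± 0.25 with TGF-β1 (3.42-fold). For 1427053_at it was -1.98 ± 0.26 and -1.83 ± 0.26.

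Sned1, a matrix glycoprotein with a nidogen domain, EGF-like repeats and fibronectin type III repeats, was the gene with the lowest values under TGF-β1. Its probe set 1435603_at read 1.64, 1.62 and 1.5 in the untreated arrays, 0.00, -0.48 and 0.22 with BMP4, and -1.34, -0.99 and -0.69 with TGF-β1. No array of any group overlapped another group, and the order was untreated, BMP4, TGF-β1 from the highest. The log2 difference was -1.67 ± 0.19 with BMP4 (3.19-fold) and -2.60 ± 0.19 with TGF-β1 (6.04-fold). In TGF-β1 cultures it ranked second from the lowest of all 18193 genes by this difference.

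Pamr1, a secreted protein with a peptidase domain named for its association with muscle regeneration, goes against a description of the set as lowered by both factors. The values of 1433529_at were 0.00, 0.67 and 0.00 in the untreated arrays, -1.86, -2.15 and -2.32 with BMP4, and 0.14, 0.65 and 0.14 with TGF-β1. BMP4 arrays lay below all others, while untreated and TGF-β1 arrays overlapped. The log2 difference from untreated was -2.33 ± 0.21 with BMP4 (5.03-fold) and 0.09 ± 0.21 with TGF-β1 (95% interval -0.37 to 0.55).

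The membrane proteins of the set are Lepr, Scara5 and Abca9. Lepr, the receptor for the hormone leptin and a marker of stromal cells in bone marrow, has 4 probe sets that did not behave alike. Probe set 1425644_at read 0.88, 2.31 and 1.05 in the untreated arrays, -0.63, 0.00 and -1.01 with BMP4, and -0.70, 0.06 and -1.03 with TGF-β1. The untreated arrays were above all treated ones, and the array numbered 2 stood highest in all 3 groups. The log2 difference was -1.96 ± 0.40 with BMP4 (3.89-fold) and -1.97 ± 0.40 with TGF-β1 (3.93-fold). A similar course was seen for 1456156_at, with -1.64 ± 0.36 and -1.54 ± 0.36. The remaining Lepr probe sets moved little, with -0.15 ± 0.08 and 0.06 ± 0.08 for 1425873_a_at and -0.34 ± 0.17 and -0.12 ± 0.17 for 1425875_a_at.

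Scara5, a class A scavenger receptor that takes up ferritin and is found on stromal fibroblasts, had the largest difference under BMP4 among the 8 genes, just ahead of Pamr1. Its probe set 1451204_at read 1.23, 2.16 and 1.15 in the untreated arrays, -0.99, -0.70 and -0.81 with BMP4, and -0.30, 0.61 and 0.00 with TGF-β1. The groups did not overlap, with BMP4 lowest and TGF-β1 between BMP4 and untreated. The log2 difference was -2.35 ± 0.28 with BMP4 (5.09-fold) and -1.41 ± 0.28 with TGF-β1 (2.66-fold). In contrast, 1431336_at stayed within a range of 0.46 over the 9 arrays.

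Abca9 encodes an ATP-binding cassette transporter of subfamily A, a family of lipid transporters. For 1440879_at the untreated arrays read 1.44, 1.99 and 1.13, the BMP4 arrays -0.09, 0.09 and -0.04, and the TGF-β1 arrays -0.40, 0.00 and -0.09. Untreated arrays lay above the rest and the treated groups overlapped, with a log2 difference of -1.54 ± 0.19 for BMP4 (2.90-fold) and -1.68 ± 0.19 for TGF-β1 (3.21-fold). The other Abca9 probe set, 1458929_at, spanned 0.24 over the 9 arrays.

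Arhgap20, which acts downstream of the small GTPase Rap1, read 1.70, 2.22 and 1.55 in the untreated arrays (1429918_at), -0.21, -0.59 and -0.18 with BMP4, and 0.04, -0.07 and 0.00 with TGF-β1. The groups did not overlap, although the gap between the treated groups was small. The log2 difference was -2.15 ± 0.17 with BMP4 (4.43-fold) and -1.83 ± 0.17 with TGF-β1 (3.56-fold). The course was alike but smaller for 1427522_at, at -1.23 ± 0.17 and -0.95 ± 0.17.

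**Figure D2:**
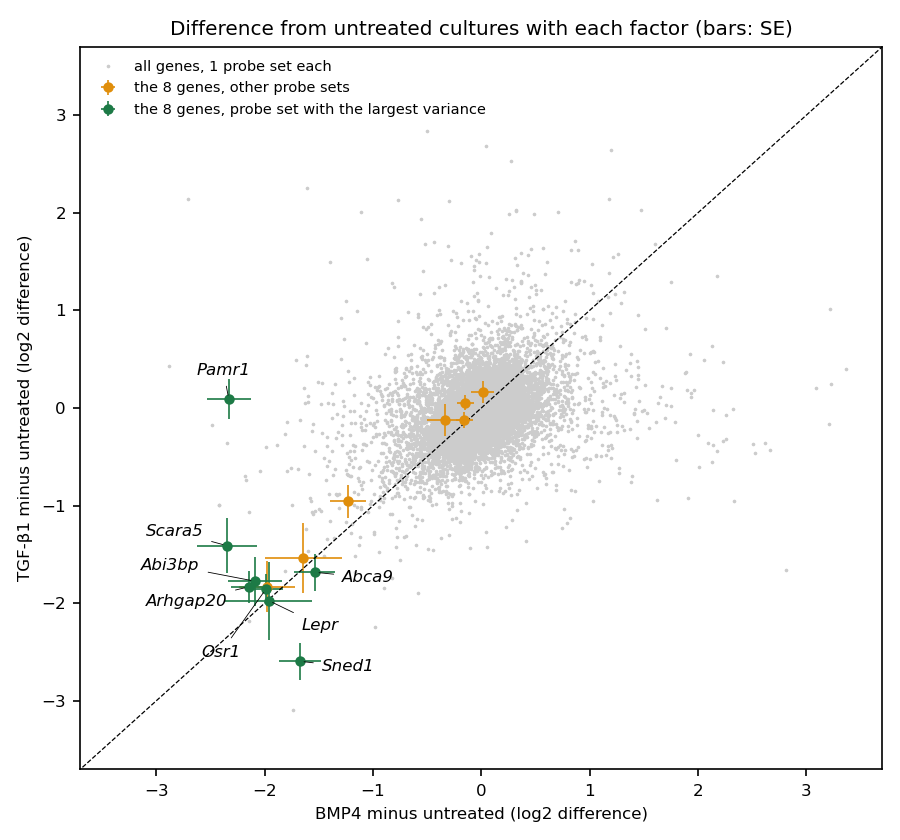
Log2 difference from untreated cultures with BMP4 (x axis) and with TGF-β1 (y axis) for 18193 genes (grey, 1 probe set each), the 8 genes (green) and their other probe sets (orange), with SE bars and the line of equal differences dashed. Most of the 8 genes lie at the lower left, Sned1 lies lowest, and Pamr1 lies to the left at 0.09 on the y axis.

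Over the 8 genes the median log2 difference was -2.04 with BMP4 and -1.80 with TGF-β1. A probe set was called when its adjusted p was under 0.05 over all probe sets. By this rule 8 of 8 genes were called lower with BMP4 against 4.51% of all genes, and 7 of 8 with TGF-β1 against 4.21%, which the choice of the genes largely fixes. By probe set it was 11 of 15 and 10 of 15, against 3.13% and 2.6% of all probe sets. Arrays of untreated and treated cultures did not overlap in 8 of 8 genes with BMP4 (12.2% of all genes, lower) and in 7 of 8 with TGF-β1 (15.1%). Lepr was the gene that missed the call with BMP4 when BMP4 array 1 or 3 was left out. With TGF-β1, Lepr and Scara5 missed it without TGF-β1 array 1 or 3 and in a fit of only the groups compared, and Lepr also without untreated array 2.

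A total of 233 genes (1.28% of 18193) were called lower with both factors, and 7 of the 8 genes are among them. Ranked by the mean of both differences, Sned1, Arhgap20, Lepr, Abi3bp, Osr1 and Scara5 took ranks 3 to 8 and Abca9 rank 11. The genes ahead of and between them were Enpep, an aminopeptidase, and Tgfbr3, a TGF-β co-receptor, at ranks 1 and 2, with Igfbp5 and Maf at ranks 9 and 10. These 4 were named after their values were seen. Both comparisons share the untreated arrays.

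The factors were also set against each other directly. The choice of the genes rested on the BMP4 and TGF-β1 arrays, so these differences are likewise a description, given without a p. Pamr1 lay higher with TGF-β1 than with BMP4 by a log2 difference of 2.42 ± 0.21 (5.35-fold; 95% interval 1.96 to 2.88), as a low value with BMP4 alone makes it. Sned1 lay lower with TGF-β1 by -0.92 ± 0.19 (1.89-fold; interval -1.35 to -0.50), in 3 of 3 replicate numbers. In the fit these 2 genes were called, Pamr1 higher and Sned1 lower, beside 10.1% of all genes called in either direction (5.38% lower and 4.73% higher), from which nothing is read. The Sned1 call was lost without BMP4 array 1 or 3 or TGF-β1 array 1 or 2.

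Scara5 lay higher with TGF-β1 than with BMP4 by 0.94 ± 0.28 (1.92-fold; interval 0.32 to 1.56), and was not called. Arrays of the treated groups did not overlap in 4 of the 8 genes (Arhgap20, Pamr1, Scara5 and Sned1), and in 30% of all genes. Blocking on the replicate number added Scara5 to the calls, so that 2 of the 8 genes were then higher with TGF-β1 (5252 probe sets called with the block, 3110 without), and so did leaving out untreated array 2.

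The remaining genes gave intervals that hold 0. The difference was 0.13 (interval -0.21 to 0.48) for Osr1, 0.31 (-0.25 to 0.87) for Abi3bp, -0.15 (-0.57 to 0.28) for Abca9 and 0.32 (-0.05 to 0.69) for Arhgap20. Lepr had the widest interval, -0.91 to 0.88 around -0.01, so a sizeable difference in either direction lies within it. Such intervals do not show that the factors acted alike on these genes.

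**Figure D3:**
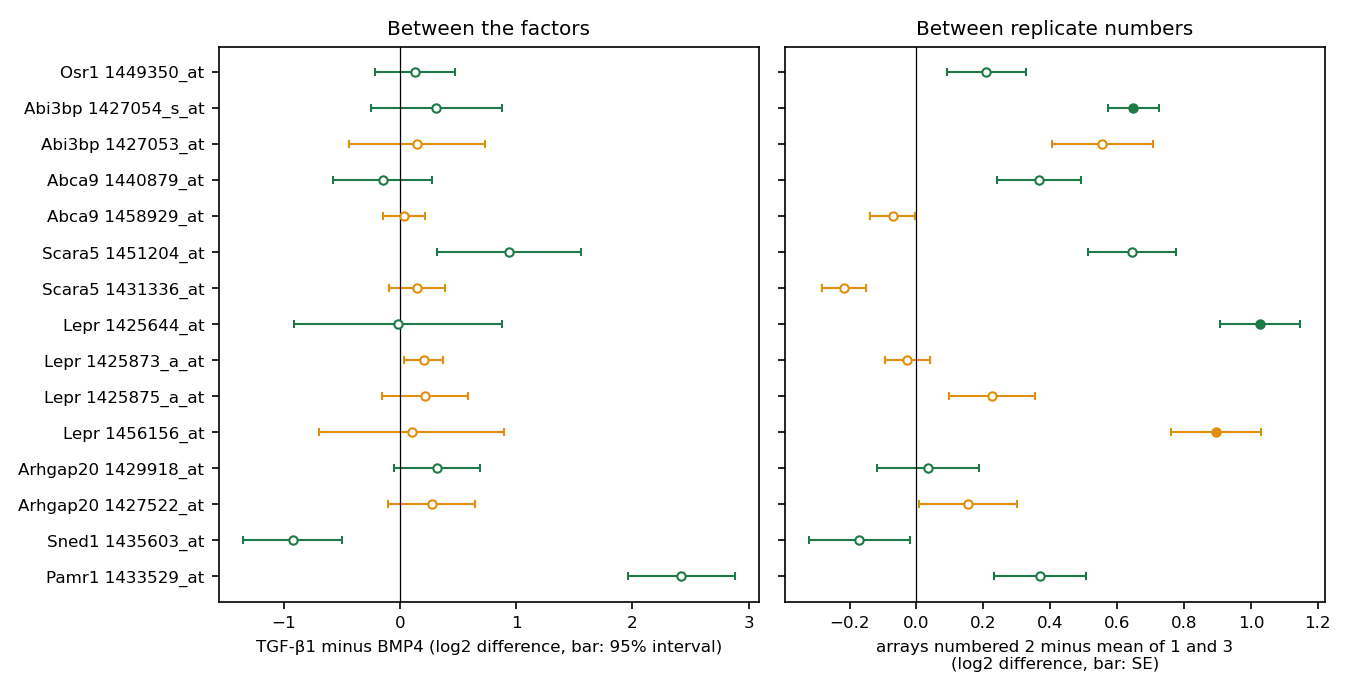
Log2 difference (x axes) of each of the 15 probe sets (y axis) between TGF-β1 and BMP4 on the left, with 95% intervals, and between arrays numbered 2 and the mean of arrays numbered 1 and 3 on the right, with SE. Green marks the probe set standing for its gene, orange the others, and filled points on the right have an adjusted p under 0.05 in the test over the 3 replicate numbers. Pamr1 (2.42) and Sned1 (-0.92) lie farthest from 0 on the left among the points above and below it. On the right, Abi3bp 1427054_s_at and the Lepr probe sets 1425644_at and 1456156_at are filled.

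The arrays of each group carry replicate numbers, which the sources do not tie to a set-up of the cultures, and which allowed a comparison that does not use the contrasts by which the genes were chosen. Lepr and Abi3bp varied with the number in a limma F test with the treatment in the model (adjusted p = 0.0097 and 0.0095). They are 2 of the 8 genes, and 3.75% of all genes were called. By probe set, 3 of 15 were called, against 2.38% of all probe sets. In the same F test Lepr 1456156_at was called (adjusted p = 0.028). Abi3bp 1427053_at (0.18), Lepr 1425873_a_at (0.92) and Lepr 1425875_a_at (0.48) were not. For Lepr the arrays numbered 2 exceeded the mean of those numbered 1 and 3 by 1.03 ± 0.12 log2 units, and for Abi3bp by 0.65 ± 0.07, higher in 3 of 3 groups for both. Scara5 (0.64 ± 0.13, F test adjusted p = 0.083), Abca9 (0.37 ± 0.12, 0.28), Pamr1 (0.37 ± 0.14, 0.29) and Osr1 (0.21 ± 0.12, 0.48) also had positive values without passing the F test. A limma test of arrays numbered 2 against the mean of 1 and 3 was chosen after seeing the data. It called Lepr, Abi3bp and Scara5 higher (3 of the 8 genes, beside 3.62% of all genes), with Scara5 at adjusted p = 0.032. Sned1 was the one gene below 0, at -0.17 ± 0.15, and Arhgap20 was at 0.03 ± 0.15. In all, 7 of the 8 genes were above 0, against 46.9% of all genes. By probe set it was 11 of 15, against 45.5% of all probe sets. The genes share the same arrays and mostly deviated together. The probe set standing for a gene was also picked by its variance, which includes this spread. Nothing is therefore read from these counts above 0.

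The calls by replicate number depended on which groups and which scaling were used. Leaving out the BMP4 group or the TGF-β1 group left 0 of the 8 genes called, with adjusted p = 0.096 and 0.17 for Lepr and 0.14 and 0.16 for Abi3bp, while both stayed called without the untreated group. Quantile normalization of the centred values again gave 2 genes, but these were Scara5 (0.043) and Pamr1 (0.017), with Lepr at 0.054 and Abi3bp at 0.41. The spread (SD) over all probe sets was 0.243 and 0.258 on the untreated and BMP4 arrays numbered 2, and 0.177 to 0.215 on the other 7 arrays; its part in these values was not tested.

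The mean of the 8 genes summarises the pattern by array. It was 1.26, 1.87 and 1.16 in the untreated arrays, -0.60, -0.48 and -0.65 with BMP4, and -0.40, 0.05 and -0.23 with TGF-β1. The array numbered 2 was the highest in each group. After the group means were taken out, 25 of the 28 gene pairs were positively correlated over the 9 arrays (median r = 0.53), from -0.42 for Abi3bp with Sned1 to 0.90 for Abca9 with Scara5. The pairs share the same 9 arrays, and no p is given. The share of positive pairs over all genes was not worked out, so nothing particular to these genes is read from the count.

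Outside the set, the genes whose course over the 9 arrays was most like this mean were, of 2105 genes that spanned at least 1 log2 unit, Mgst1 (Pearson r = 0.996), Tmem176b (0.986), Agtr1a (0.986), Sfrp2 (0.985), Amot (0.983), Myorg (0.981), Jade2 (0.977) and Smarca2 (0.977). Such values largely restate the difference between untreated and treated arrays. Mgst1, a microsomal glutathione transferase, was lower by -1.61 ± 0.17 with BMP4 and -1.23 ± 0.17 with TGF-β1. Sfrp2, a secreted Wnt modulator, was lower by -1.43 ± 0.16 and -1.35 ± 0.16, and Agtr1a, the angiotensin II receptor, by -1.40 ± 0.14 and -1.16 ± 0.14.

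**Figure D4:**
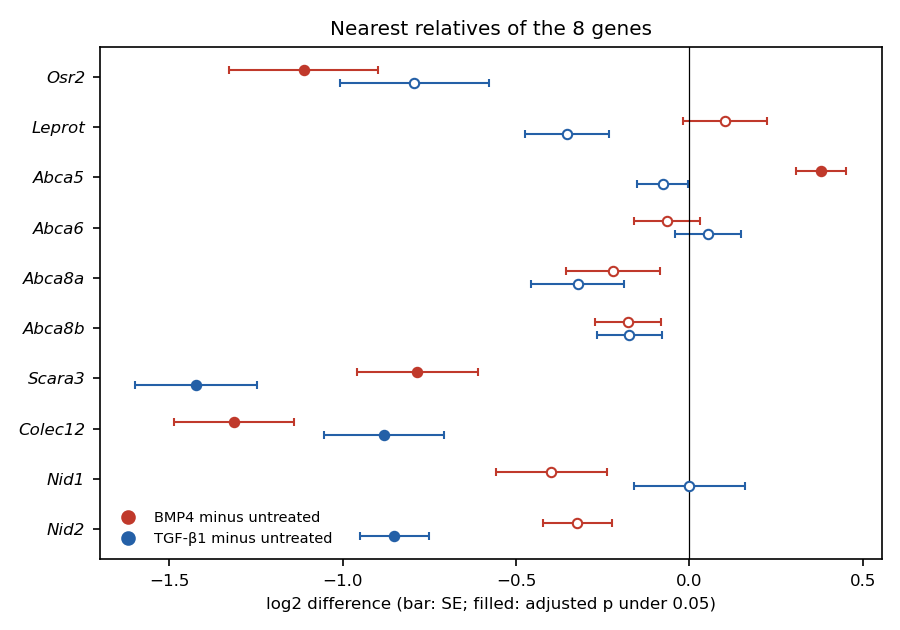
Log2 difference from untreated cultures (x axis, SE bars) with BMP4 (red) and TGF-β1 (blue) for the closest relatives of the 8 genes (y axis), filled where the adjusted p is under 0.05. Scara3 and Colec12 are filled for both factors, and the 4 Abca genes lie between -0.32 and 0.38.

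The closest relatives of the 8 genes were compared in the same fit. The scavenger receptors Scara3 and Colec12 were, like Scara5, lower with both factors. Scara3 fell with TGF-β1 by 1.42 ± 0.17 (adjusted p = 0.0021) and with BMP4 by 0.78 ± 0.17 (0.028), a call that was lost without untreated array 1, TGF-β1 array 1 or 3, or any 1 of the 3 BMP4 arrays. Colec12 fell with BMP4 by 1.31 ± 0.17 (0.0021) and with TGF-β1 by 0.88 ± 0.17 (0.020), the latter lost without untreated array 1 or 2 or TGF-β1 array 1 or 3.

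Osr2, the odd-skipped relative of Osr1, fell with BMP4 by 1.11 ± 0.22 (adjusted p = 0.015, and 0.058 without BMP4 array 1), and had a log2 difference of -0.79 ± 0.22 with TGF-β1 (0.072, and 0.044 with the replicate block). Its other probe set differed by 0.00 and 0.05. Of the transporters most closely related to Abca9, Abca5 rose with BMP4 by 0.38 ± 0.07 (0.014), a call lost without untreated array 1 or BMP4 array 1 or 2. Its other probe set differed by -0.0022 with BMP4. Abca6, Abca8a and Abca8b had differences between -0.32 and 0.05. Leprot, which shares its gene region with Lepr, differed by 0.10 ± 0.12 with BMP4 and -0.35 ± 0.12 with TGF-β1 (0.15, and 0.030 with the block). Its other probe sets differed by -0.17 and -0.18 with TGF-β1 and were not called, with or without the block. Nid2, a basement membrane protein with the nidogen domain found in Sned1, fell with TGF-β1 by 0.85 ± 0.10 (0.0016). Nid1 did not pass the test with either factor, but the block called it lower with BMP4 (adjusted p = 0.026). The other Nid1 probe sets were not called with BMP4, with the block (adjusted p = 0.40 and 0.14) or without it. Between the factors, by the probe set standing for each gene, the block called Colec12 (0.033) and Nid1 (0.021) higher with TGF-β1. It called Scara3 (0.042) and Leprot (0.0077) lower. These calls were absent without the block.

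The wider list of connective tissue progenitor and fibroblast genes covers other transcription factors, receptors and matrix genes of these cells. Of its 28 measured genes, 11 fell and 1 rose with BMP4 (4.51% and 3.45% of all genes), with a median log2 difference of -0.28 against 0.0026 over all genes. The chemokine Cxcl12 fell by 1.33 ± 0.16 (adjusted p = 0.0015) and the receptor Pdgfrb by 1.04 ± 0.21 (0.020), and the homeobox gene Prrx2 was the 1 that rose, by 0.46 ± 0.09 (0.015). The Pdgfrb call was lost without untreated array 1 or 2. With TGF-β1, 4 fell and 0 rose (4.21% and 2.54% of all genes; median -0.15), and 8 fell with the replicate block, while 9 had an unadjusted p under 0.05 in limma. Among the 4 were Cxcl12, by 0.89, Ebf2, by 0.87 ± 0.10 (0.0014), and the membrane protease Fap, by 0.86 ± 0.14 (0.0081). Each of these named genes was also called lower with BMP4, Ebf2 by 0.46 and Fap by 0.60. The remaining gene of the 4, Prrx1, was not called with BMP4 without the block. It was called lower with TGF-β1 than with BMP4. When 1 array was left out, the adjusted p of Cxcl12 with TGF-β1 reached 0.061 in limma. Between the factors, 6 were higher and 4 lower with TGF-β1 (7 and 6 with the block).

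Genes that work with Osr1 in early mesoderm fell with BMP4 in 4 of 12 cases, beside 4.51% of all genes. They were Osr2, the kidney and mesothelial factor Wt1 (by 1.42 ± 0.14, adjusted p = 0.0005), the ligand Gdnf (by 0.91 ± 0.14, 0.0039) and Eya1 (by 0.79 ± 0.16, 0.020). With TGF-β1, 0 of 12 passed the test in limma (4 at an unadjusted p under 0.05, and 2 lower with the block). Between the factors, 2 of 12 were called higher and 1 lower with TGF-β1 (2 and 2 with the block), beside 4.73% and 5.38% of all genes. Wt1 and Gdnf were higher with TGF-β1 than with BMP4, by 1.12 ± 0.14 (0.0012) and 1.00 ± 0.14 (0.0018). Hand2 was the one called lower, and its adjusted p in limma reached 0.10 when 1 array was left out.

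Of 13 genes of leptin receptor signalling, 0 passed the test in any comparison in limma. Unadjusted, 3, 2 and 6 had a p under 0.05 with BMP4, with TGF-β1 and between them. With the replicate block, 1 was called higher and 1 lower with BMP4, 1 was called with TGF-β1, and 5 between the factors. Socs3, the feedback inhibitor of this pathway, had a difference of -0.91 ± 0.33 with BMP4 (adjusted p = 0.17). Medians of the list were 0.03 and 0.10, whereas Lepr itself lay near -1.96 and -1.97.

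Scavenger receptors and iron genes fell in 3 of 13 cases with BMP4 and in 2 of 13 with TGF-β1 (4 with the block), beside 4.51% and 4.21% of all genes. Beside Scara3 and Colec12 this was Slc40a1, the iron exporter ferroportin, which fell with BMP4 by 1.42 ± 0.18 (adjusted p = 0.0016). Of 13 transporters of subfamily A, 1 rose (Abca5) and 1 fell with BMP4, beside 3.45% and 4.51% of all genes. The one that fell was the surfactant lipid transporter Abca3, by 1.48 ± 0.19 (0.0020). With TGF-β1, 0 passed in limma (4 at an unadjusted p under 0.05, and 3 with the block). Between the factors, 2 were called higher and 2 lower with TGF-β1, beside 4.73% and 5.38% of all genes. Abca3 was higher with TGF-β1 than with BMP4 by 1.52 ± 0.19 (0.0012).

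Matrix proteins with nidogen or fibronectin type III domains went both ways. Of 14, 3 fell and 1 rose with BMP4, and 1 fell and 3 rose with TGF-β1 (4 rose with the block), beside 4.51% lower and 3.45% higher of all genes with BMP4 and 4.21% and 2.54% with TGF-β1. Egflam fell with BMP4 by 1.11 ± 0.13 (adjusted p = 0.0010), and Fn1, fibronectin, rose with TGF-β1 by 1.12 ± 0.16 (0.0052).

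Genes beside the 8 on the chromosome, up to a few places away in the RefSeq order (GRCm38.p6), were also read. Of 25 measured neighbours, 1 fell and 1 rose with BMP4 (Slc1a2 next to Pamr1, and Abca5), and 1 rose and 0 fell with TGF-β1 (Fjx1 next to Pamr1, by 1.35 ± 0.13, adjusted p = 0.0005). Over all genes the shares were 4.51% lower and 3.45% higher with BMP4, and 4.21% and 2.54% with TGF-β1. The median neighbour differed by -0.025 with BMP4 and -0.077 with TGF-β1.

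Genes known to respond to each factor were looked at as a check. With BMP4, 7 of 8 BMP response genes rose, among them the BMP antagonist Nog by 3.36 ± 0.16, and with TGF-β1, 6 of 7 TGF-β response genes rose, among them Pmepa1 by 1.99 ± 0.14. For these and the marker counts below, the shares over all genes were 4.51% lower and 3.45% higher with BMP4. With TGF-β1 they were 4.21% and 2.54%. Of 9 sclerotome markers, Pax1, Meox1, Meox2, Uncx and Twist1 fell and Sox9 rose with BMP4, and 0 passed with TGF-β1 in limma (the block called 1 lower). Whether a marker was absent cannot be read from centred values. Among markers of other cells, 0 of 5 erythroid genes were called, but their median was 0.84, -0.13 and 0.98 in the untreated arrays, -0.47 to 0 with BMP4 and -0.27 to 0.03 with TGF-β1. The untreated array with the lowest erythroid median was the one in which most of the 8 genes were highest. Of 5 fat cell genes, Pparg and Cebpa rose and Lpl fell with BMP4, and Cebpa and Lpl fell with TGF-β1. The part of these markers in the values of the 8 genes was not tested.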

How the data were processed

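RNA from 9 cultures was hybridised to Affymetrix Mouse Genome arrays after 50 ng of total RNA each had gone through a two-cycle amplification. The authors' deposited values are log2 signals made with RMA, with no version stated in the sources. In all 45101 probe sets the median over the 9 arrays was 0 (tolerance 1e-06), so that the table holds differences between arrays and no expression levels or signal over background. The 64 controls of the array were dropped. Of the 45037 others, 34945 carried 1 gene symbol, 932 several and 9160 none in the platform annotation.

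Groups and replicate numbers were taken from the sample titles. The values were fitted with limma 3.58.1 in R 4.3.3, with 1 mean per group over all 9 arrays (6 residual degrees of freedom, prior 4.01), two-sided tests and Benjamini-Hochberg adjustment over 45037 probe sets. Errors are SE of the fit unless SD is written. Same-numbered arrays deviated together between BMP4 and TGF-β1 (r = 0.29 to 0.50) and between untreated and TGF-β1 (0.14 to 0.49), but not in every pair between untreated and BMP4 (-0.049 to 0.50). For arrays with different numbers, r was -0.35 to 0.0034, -0.39 to 0.20 and -0.49 to 0.36 in the same order. Within a group the deviations cancel out, so both kinds of r depend on each other. Values with the replicate number as a block are therefore given mainly for the first 2 comparisons, for some named genes and counts. Not every call that the block changed is listed. Alternatives were other scalings, weights, filters, probe set rules, the methods' test with unequal variances, and leaving out arrays. Quantile normalization was run on the centred values, so it equalised the spread of deviations between arrays and not the signals. Shifting each array to a median of 0 could change nothing, since every array median was 0 already. Because the choice of the 8 genes rested on all 3 groups, no p is given for their differences between groups. The fit was tested on simulated data. Figures were drawn with Python 3.11.15.

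The 8 genes, the 19 gene lists (10 of them cell type markers) and the tests were chosen with earlier results of these data known. The result of 1 list is not reported here. Genes named from a list are the closest relatives of the 8 genes and up to 3 called genes per comparison with the largest differences, beside the genes whose course was most like the mean of the 8. Prrx1, Prrx2, Eya1 and the called markers and neighbours were named after their values were seen. Lists of markers for muscle, neurons, neural crest, notochord, endothelium, macrophages and mesothelium had at most 1 gene called in either direction with either factor without a block (Myf5, Nefl, Krt19, Cd68 and Wt1). The number of arrays limits the precision. The p values measure the spread between replicates, and the sources do not say whether arrays that share a number share a set-up.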

Additional observations from a re-analysis of the deposited data

How the results depend on the processing

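Of the probe sets standing for the 8 genes, 2 values near 0 changed sign. Lepr between the factors, at -0.01, became 0.13 with the mean of all its probe sets and ran from -0.32 to 0.26 when 1 array was left out, and Pamr1 with TGF-β1 against untreated, at 0.09, ran from -0.08 to 0.31. Among their other probe sets, 4 values near 0 that were not called also changed sign when arrays were left out (Abca9 1458929_at and Lepr 1456156_at between the factors, Lepr 1425875_a_at with TGF-β1 and Scara5 1431336_at with BMP4). The counts of called probe sets moved more. Relative to untreated they were 2449 with BMP4 and 1993 with TGF-β1, and 3110 between the factors. With the replicate block they were 4069, 4029 and 5252. A fit of only the groups compared gave 1617 and 1172 for the first 2, with 5 in place of 7 of the 8 genes called lower with TGF-β1. Without the 3 arrays numbered 2, an alternative chosen after seeing the data, they were 1200, 888 and 1819. The methods' test with unequal variances called 4644, 4996 and 6191 at an unadjusted p under 0.05, but 0, 0 and 11 after Benjamini-Hochberg, when 0 of the 8 genes were called lower with BMP4 or TGF-β1 and 0 lower and 0 higher between the factors.

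Leaving out 1 array gave 1431 to 2262, 867 to 2053 and 1877 to 3330 probe sets, and 7 to 8, 5 to 7, 0 to 1 (lower) and 1 to 2 (higher) of the 8 genes. Counts moved by over 1.5 times with BMP4 without BMP4 array 1 (1511) or 2 (1431), with TGF-β1 without untreated array 1 (982) or 2 (1061) or TGF-β1 array 1 (903), 2 (1194) or 3 (867), and between the factors without BMP4 array 1 (1877) or 2 (1932) or TGF-β1 array 3 (1927). Scara5 joined Pamr1 as higher with TGF-β1 than BMP4 (2 of 8 genes) with the block, with only the groups compared, after quantile normalization, with only the more variable probe sets, with the mean of all probe sets and without the arrays numbered 2. The block changed no other call of the 8 genes. By replicate number, 1073 probe sets were called. With the untreated, BMP4 or TGF-β1 group left out it was 525, 71 and 74 (0 of the 8 genes in the last 2). With arrays numbered 2 set against the mean of 1 and 3, also chosen after seeing the data, it was 1861 (3 of the 8 genes). Quantile normalization moved the difference of Osr1 1449350_at, BMP4 minus untreated, to -2.57. The causes were not tested.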
